A study of Bos taurus with 72 samples.

Results

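The adult haemoglobin transcripts of cattle were measured as 3 rows of a whole-blood count table, taken by their Ensembl identifiers out of 24616 genes. They were HBB (ENSBTAG00000038748), the beta-globin gene, and HBA (ENSBTAG00000026417) and HBA1 (ENSBTAG00000026418), the paired alpha-globin genes. HBB passed the filter on low counts that left 12655 genes for testing. HBA and HBA1 failed it, so 1 of the 3 genes entered the test of all genes, and the alpha-globin rows were tested in a second fit that kept them beside those genes, 12657 in all. The names were given with the identifiers, and the count table itself holds no gene names.

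Whole blood was taken from 24 male beef cattle at each of 3 stages, which the labels call entry, pulled and close-out, giving 72 libraries of poly-A selected RNA from stabilised blood. The series concerns bovine respiratory disease, and a pulled animal in a feedlot is one taken out of its pen. No treatment, genotype, breed or age is given in the labels, and no diagnosis by animal, so stage, age and time in the feedlot cannot be told apart. The same animals stand in every stage, which makes each comparison a paired one, and the 3 comparisons share libraries with each other.

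Adult haemoglobin is a tetramer of a pair of alpha chains and a pair of beta chains, each holding a haem group that binds oxygen. Circulating red cells have no nucleus, and most globin mRNA in blood is carried by reticulocytes, the youngest red cells, which lose it as they mature. Healthy adult cattle release few reticulocytes into the blood, and their release is known to increase when red cells are lost and replaced. In bulk blood, fewer cells of a type and less RNA per cell cannot be told apart. The labelled tissue was not checked against other blood cell markers, because the identifiers could not be paired with names.

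Library totals ran from 8.24 M to 29.1 M counts (M, megareads), with a median of 17.2 M. Some libraries stood apart before any haemoglobin value was considered. The library labelled pulled of animal 9 was close to the entry library of animal 11, with a chi-square of 1.46 per degree of freedom over genes, while the next closest of the 2556 library pairs had 29.1. Its correlation over 100 genes that separate animals was 0.94 with entry of animal 11, and -0.07 and 0.02 with the other libraries of animal 9. For the pulled library of animal 12 by its label, correlations were -0.18 and -0.17 with that animal's other libraries, while among the other 70 libraries the lowest value within an animal was 0.62 and the highest between animals was 0.53. Genes that separate animals favour such a gap, so it is no independent yardstick. The main values that rest on pulled libraries are therefore given with and without the pulled libraries of animals 9 and 12. A split by sample title also moved with the data: at entry, the 6 animals with title numbers above 98 (animals 2 to 7) had a mean TMM scaling factor of 0.806 ± 0.0966 (SD, n = 6), against 1.14 ± 0.0876 (SD, n = 18) in the 18 with numbers up to 98. The labels do not say what the title numbers are.

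In the deposited counts, haemoglobin made up a small share of these libraries at every stage, nearly all of it HBB. The 3 rows together held a median of 0.0172% of a library's counts at entry (0.00315% to 0.0476%), 0.0103% when pulled (0.00418% to 0.0685%) and 0.0360% at close-out (0.0105% to 0.254%). Without the 2 doubted libraries the pulled median was 0.00919%. HBB contributed at least 98.7% of the haemoglobin counts in each of the 72 libraries. How reads that match both alpha-globin genes were counted is not given, so the alpha-globin part of these shares is uncertain. By count, HBB stood at a median rank of 1183 among the genes of a library at entry, 2117 when pulled and 503.5 at close-out, and its best rank in any library was 25. Counts are not per transcript length, so these ranks describe the reads and not the number of molecules.

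HBB was higher at close-out than at the other stages, and it did not differ by the test between entry and pulled. At entry the 24 libraries held between 392 and 10683 HBB counts, with a median of 2966. When pulled they held between 597 and 10665, with a median of 1874.5. At close-out they held between 1310 and 51024, with a median of 6007. The ranges of the 3 stages overlapped, and the close-out libraries reached furthest upward.

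Per M library counts (an unscaled CPM), HBB ran from 31.5 to 474 at entry, with a median of 171 and a mean of 190 ± 99.6 (SD, n = 24). When pulled it ran from 41.5 to 684, with a median of 103 and a mean of 146 ± 144.7 (SD, n = 24), or 91.7 and 138 ± 144.6 (SD, n = 22) without the 2 doubted libraries. At close-out it ran from 104 to 2531, with a median of 359 and a mean of 577 ± 587 (SD, n = 24). On this scale, 8 close-out libraries lay above the highest entry library and 7 above the highest pulled library, while 12 pulled and 3 entry libraries lay below the lowest close-out library. On the scale of TMM-scaled log2 CPM, the means were 7.31 ± 0.92 at entry, 6.88 ± 1.04 when pulled and 8.62 ± 1.28 at close-out (SD, n = 24 each).

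**Figure D1:**
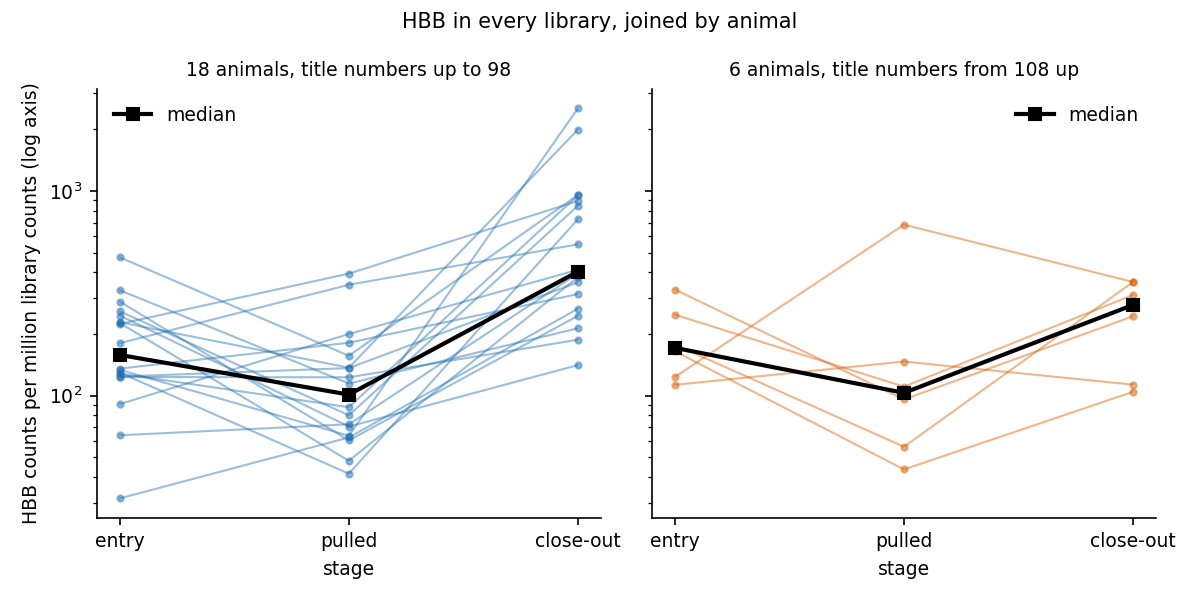
HBB in counts per M library counts (log axis) at entry, pulled and close-out, with 1 thin line per animal and black squares for the median. The left panel shows the 18 animals with title numbers up to 98, which were all higher at close-out than when pulled, and the right panel the 6 with higher numbers, of which 4 were.

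The first comparison, pulled against entry, asks whether blood at the time an animal was pulled differed from its blood on arrival. HBB gave a log2 fold change of -0.46 (SE 0.32, edgeR quasi-likelihood test with Benjamini-Hochberg adjustment over all genes, adjusted p = 0.232). It was lower in 15 and higher in 9 of the 24 animals. The change within an animal had a mean of -0.44 and an SD of 1.35 in log2 CPM (n = 24). In that comparison 42% of the genes tested passed the threshold of 0.05 on the adjusted p. The median fold change over all genes was -0.03 on the log2 scale.

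Close-out against pulled gave the clearest rise. HBB had a log2 fold change of 1.80 (edgeR, adjusted p = 3.04e-05, SE 0.32), higher in 22 of the 24 animals, and stood at rank 37 of 12655 by size of rise. The exceptions were animals 3 and 5. Of all genes tested, 13.3% rose by the same test, and the median fold change over them was -0.01. The ratio within an animal, per M counts, had a median of 2.72 and ran from 0.525 in animal 3 to 39.8 in animal 8.

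Close-out against entry gave a log2 fold change of 1.34 for HBB (edgeR, adjusted p = 0.00233, SE 0.32), at rank 43 of 12655. The background was 10.2% of genes called higher, with a median fold change of -0.02 over all genes. HBB was higher at close-out in 18 of the 24 animals on the TMM scale and in 19 on the scale of library totals. The median ratio within an animal was 2.60, with a range from 0.572 in animal 1 to 18.9 in animal 8. When the doubted pulled libraries of animals 9 and 12 were left out, the log2 fold changes of HBB were -0.49, 1.83 and 1.33 in the order of the comparisons above, and no call changed.

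The alpha-globin rows held very few counts. HBA ran from 0 to 8 counts per library at entry, from 0 to 7 when pulled and from 1 to 50 at close-out, with sums over 24 libraries of 61, 32 and 230. It was at 0 in 7 libraries at entry and in 13 when pulled, and in 0 at close-out. Without the 2 doubted libraries the pulled sum was 29 for HBA, and for HBA1 it was 72. A library with no count still allows 3 counts, which was between 0.103 and 0.364 per M counts over the 72 libraries, counting error only.

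HBA1, the neighbouring alpha-globin gene, held somewhat more. It ran from 0 to 42 counts at entry, from 0 to 19 when pulled and from 1 to 83 at close-out, with sums of 127, 74 and 471. It was at 0 in 4 libraries at entry, 6 when pulled and 0 at close-out. At entry and when pulled, animal 10 held the highest HBA1 counts, 42 and 19, and at close-out animal 8 did, with 83. The ranges of the stages overlapped for both genes.

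Both alpha-globin genes rose at close-out in the fit that kept them. Summed over libraries, HBA stood at 0.143 per M counts at entry (95% exact binomial interval 0.109 to 0.184), 0.0783 when pulled (0.0535 to 0.110) and 0.557 at close-out (0.488 to 0.634). For HBA1 the sums were 0.298 (0.248 to 0.355), 0.181 (0.142 to 0.227) and 1.14 (1.04 to 1.25). These intervals cover counting error only, and reads from polymerase chain reaction copies are not independent molecules.

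**Figure D2:**
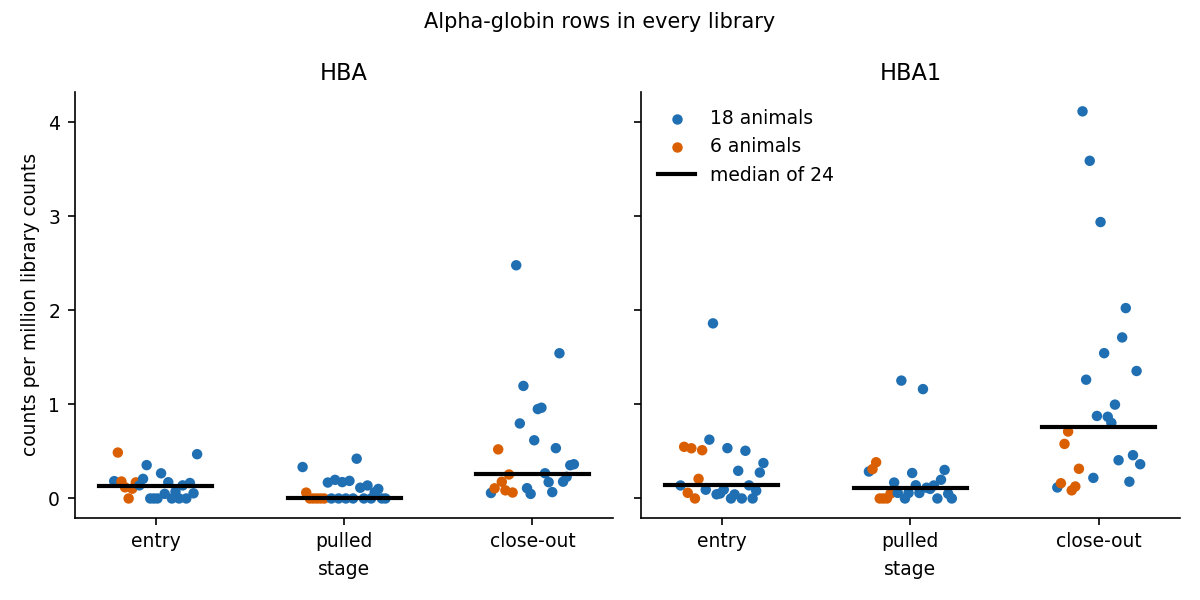
HBA and HBA1 in counts per M library counts at each stage, 1 point per library, coloured by the set of 18 or 6 animals, with a black line for the median of 24. Most libraries sat at or near 0 at entry and when pulled, and the highest close-out libraries reached 2.48 for HBA and 4.12 for HBA1.

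Close-out against pulled, HBA had a log2 fold change of 2.38 (edgeR, adjusted p = 1.04e-04, SE 0.47) and was higher in 21 of 24 animals. HBA1 had 2.35 (edgeR, adjusted p = 5.27e-05, SE 0.44) and was higher in 20 of 24. The share of genes called higher was again 13.3%. Close-out against entry, HBA had 1.76 (edgeR, adjusted p = 0.00259, SE 0.43) and HBA1 had 1.98 (edgeR, adjusted p = 5.33e-04, SE 0.42), beside 10.2% of genes called higher. Against entry, HBA1 was higher in 19 of 24 animals on both scales, and HBA in 20 on the TMM scale and 19 on library totals. Pulled against entry, neither passed: HBA had -0.62 (edgeR, adjusted p = 0.334, SE 0.53) and HBA1 had -0.38 (edgeR, adjusted p = 0.532, SE 0.48). Without the doubted pulled libraries of animals 9 and 12, close-out against pulled gave 2.46 for HBA and 2.24 for HBA1, and no call changed. With no filter at all both genes passed again at close-out, against pulled and against entry. The rise against entry was not seen in the 6 animals with title numbers above 98. There HBA had -0.23 and HBA1 had -0.36 (edgeR, adjusted p = 0.765 and 0.693), where 2590 of 12657 genes were called higher. In the 18 animals HBA had 2.33 and HBA1 had 2.62 (edgeR, adjusted p = 9.68e-05 and 1.12e-05). In that fit 3854 of 12657 genes were called higher. The difference between the sets has its own test, given further below, which 64.6% of the genes tested passed.

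**Figure D3:**
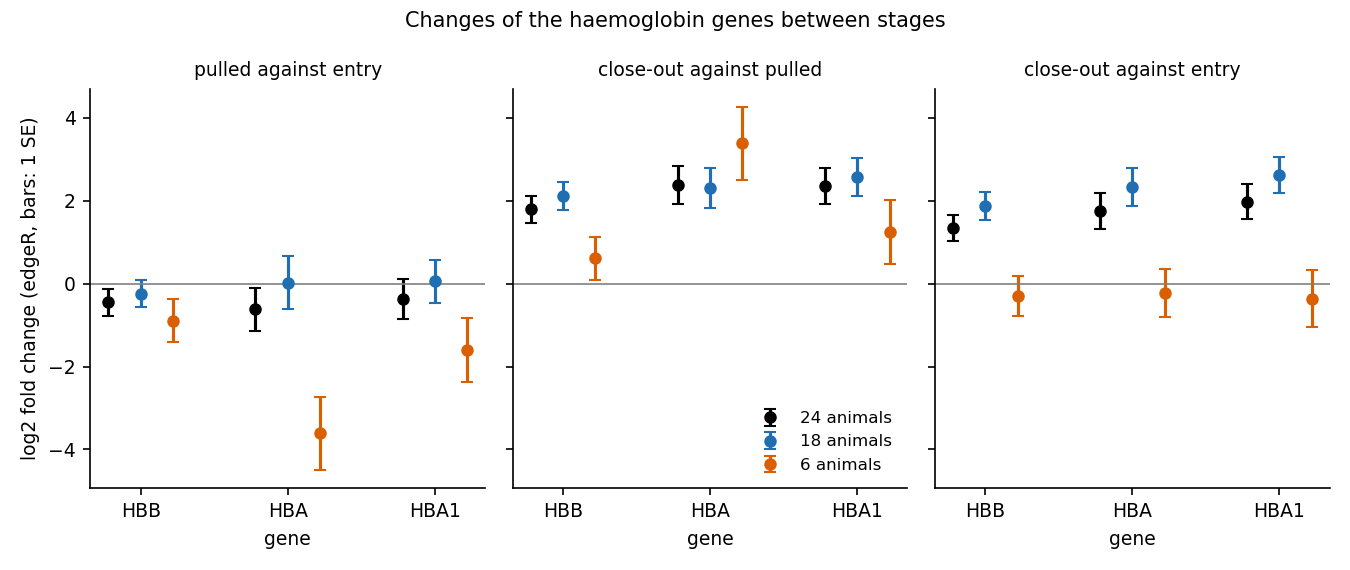
Log2 fold changes of HBB, HBA and HBA1 from edgeR with bars of 1 SE, in 1 panel per comparison, for all 24 animals, the 18 and the 6. HBB rose by 1.80 from pulled to close-out over 24 animals, while in the 6 animals its close-out values lay near those of entry.

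The balance of the globin chains was compared by ratios of counts, which need no scaling between libraries. Counts were first summed over the 24 libraries of each stage. Alpha-globin counts made up 0.225% of the haemoglobin counts at entry (95% exact binomial interval 0.194% to 0.260%), 0.187% when pulled (0.153% to 0.226%) and 0.282% at close-out (0.261% to 0.303%). That is 442, 535 and 354 HBB counts for each alpha-globin count. Libraries with more haemoglobin counts weigh more in these sums, and the intervals cover counting error only. By library, the median share of HBB in the haemoglobin counts was 99.83% at entry, 99.91% when pulled and 99.73% at close-out. The protein pairs alpha and beta chains equally, whereas the deposited counts did not. HBA and HBA1 are near-identical copies that stand next to each other in the RefSeq assembly ARS-UCD2.0, with gene spans of 769 bases each, and how reads that match both were counted, the sources used here do not give. The alpha-globin levels and the split between the copies are therefore uncertain.

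In the same sums, HBA gave 32.4% of the alpha-globin counts at entry (25.8% to 39.6%), 30.2% when pulled (21.7% to 39.9%) and 32.8% at close-out (29.3% to 36.4%). These shares differed by less than their counting intervals. Over the 24 animals, the log2 ratio of alpha-globin to HBB counts (pseudocount 0.5) was -9.20 ± 1.24 at entry, -9.41 ± 2.04 when pulled and -8.63 ± 0.78 at close-out (SD). None of the 6 paired tests of a ratio passed: two-sided sign-flip permutation tests with 100000 resamples gave adjusted p from 0.214 to 0.667, and with a pseudocount of 5 the 3 differences of the alpha-to-HBB ratio changed sign. With that pseudocount 1 of the 6 passed, the ratio of HBA to HBA1 for close-out against entry, which differed by -0.40 on the log2 scale (permutation adjusted p = 0.0278).

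Over the 24 animals the spread of HBB was highest at close-out. The SD of log2 CPM between the 24 animals was 0.92 at entry, 1.04 when pulled and 1.28 at close-out, against a median over all genes of 0.54, 0.49 and 0.42. HBB varied more than 84.9% of the 12655 genes at entry, 93.3% when pulled and 98.9% at close-out, where it stood at rank 140. Within the 18 animals its SD was 0.99, 0.94 and 1.25, and without the doubted libraries the pulled value over 22 animals was 1.02. The 6 animals had another order, with an SD of 0.44 at entry, 1.41 when pulled and 0.83 at close-out. No test was made of these spreads.

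**Figure D4:**
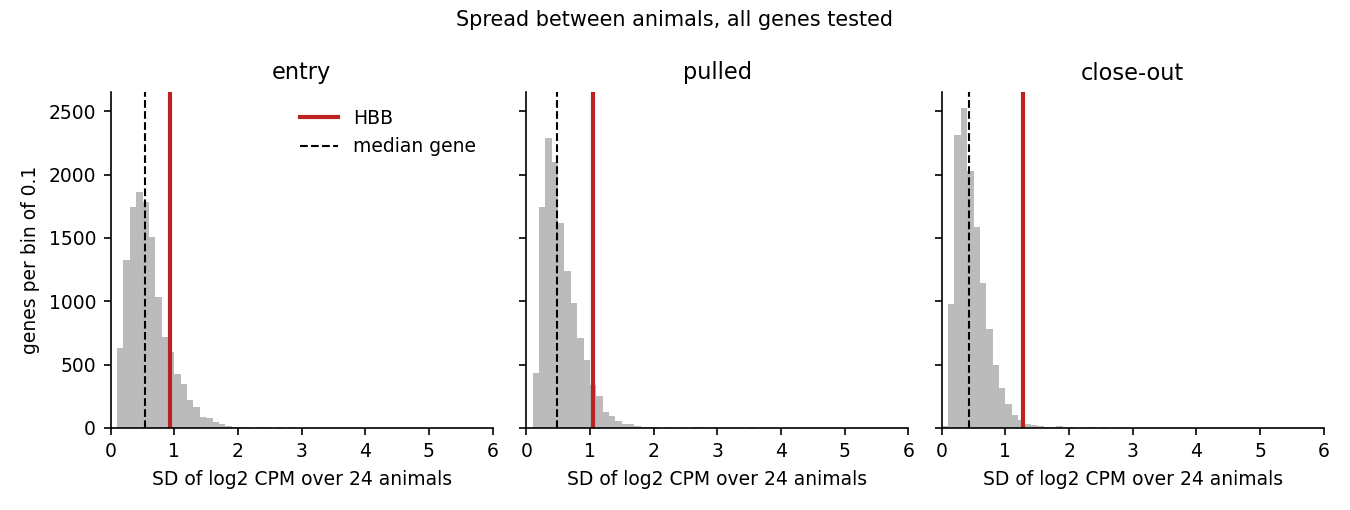
Histograms of the SD of log2 CPM between 24 animals for the 12655 genes tested, in bins of 0.1, at each stage. The red line marks HBB (0.92, 1.04 and 1.28) and the other line the median gene (0.54, 0.49 and 0.42).

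The close-out range was set by a few animals. Animal 8 had 133.6 HBB counts per M at entry (95% exact binomial interval 129 to 139), 63.6 when pulled (60.0 to 67.5) and 2531 at close-out (2509 to 2553). Animal 9 had 228 at entry and 1994 at close-out, with 137 in the library labelled pulled, beside 136 in entry of animal 11. Animal 10 came next at close-out with 955, then animal 14 with 951. The lowest close-out library was that of animal 2, with 104. Counting error was small beside these differences between animals.

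The order of stages was not the same in every animal. HBB was highest at close-out in 17 animals, at entry in 5 and when pulled in 2, and it was lowest when pulled in 15. In 10 animals pulled was lowest and close-out highest. Without animals 9 and 12, HBB was highest at close-out in 15 of 22 and lowest when pulled in 14. Animal 3 went the other way, with 123 per M at entry, 684 when pulled and 359 at close-out, and its pulled library was the highest of that stage. In animal 21 the entry library, at 31.5, was the lowest of the 72.

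An animal's level at 1 stage did not predict its level at another by the test. Between entry and pulled, HBB log2 CPM correlated over the 24 animals with r = 0.06 (rho = -0.04, permutation adjusted p = 0.943 for r and 1 for rho). Between pulled and close-out r was 0.14 (rho = 0.16, permutation adjusted p = 0.849 and 0.862), and between entry and close-out 0.01 (rho = -0.12, permutation adjusted p = 0.967 and 0.862). Without the 2 animals farthest from the median, r was -0.18 between entry and pulled and -0.14 between entry and close-out. Without the doubted libraries it was 0.07 between entry and pulled and 0.11 between pulled and close-out, and within the 18 animals it was 0.16, 0.11 and 0.18 in the order given. None of the 9 relations over the 3 genes passed. The largest r of the 9 was that of HBA1 between entry and close-out, at 0.28 (permutation adjusted p = 0.849). Within the 18 animals that relation had r = 0.48 and rho = 0.50 (permutation p = 0.0418 and 0.0349, adjusted p = 0.376 and 0.314). Over all genes and the 24 animals, r between stages had a median of -0.04, 0.19 and 0.12 in the order given.

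At close-out, animals high in HBB were also high in the alpha-globin genes. HBB and HBA1 correlated over the 24 animals with r = 0.86 and rho = 0.87 (permutation adjusted p = 4.00e-05 and 8.00e-05 over 8 relations). The raw p of 1e-05 is the smallest that 100000 resamples can give. Without the 2 animals farthest from the median r was 0.82. For HBA, r was 0.78 and rho 0.70 (permutation adjusted p = 4.00e-05 and 8.80e-04), and 0.71 without the 2 farthest. Scaled by library totals alone, the values of r were 0.82 for HBA1 and 0.75 for HBA. Within the 18 animals r was 0.85 for HBA1 and 0.76 for HBA (permutation adjusted p = 3.60e-04 and 0.00192 over 12 relations). In the 6 animals r was 0.60 and 0.61 (exact permutation, adjusted p = 0.533 for both).

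When pulled, no such relation was found over the 24 animals: r was 0.16 for HBA1 and -0.06 for HBA (permutation adjusted p = 0.609 and 0.80). Without the doubted libraries of animals 9 and 12 these were 0.22 and -0.15, and within the 18 animals 0.07 and -0.02. At entry the relation was taken within the sets of animals. In the 18 animals r was 0.55 for HBA1 and 0.56 for HBA (permutation adjusted p = 0.0365 and 0.0333), with rho of 0.54 and 0.50 (adjusted p = 0.0602 and 0.0702). Without the 2 farthest animals r was 0.39 and 0.41. In the 6 animals r was 0.79 for HBA1 and 0.15 for HBA (exact permutation, adjusted p = 0.102 and 0.80). The alpha-globin counts were lowest when pulled, and a difference in r between stages was not tested.

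**Figure D5:**
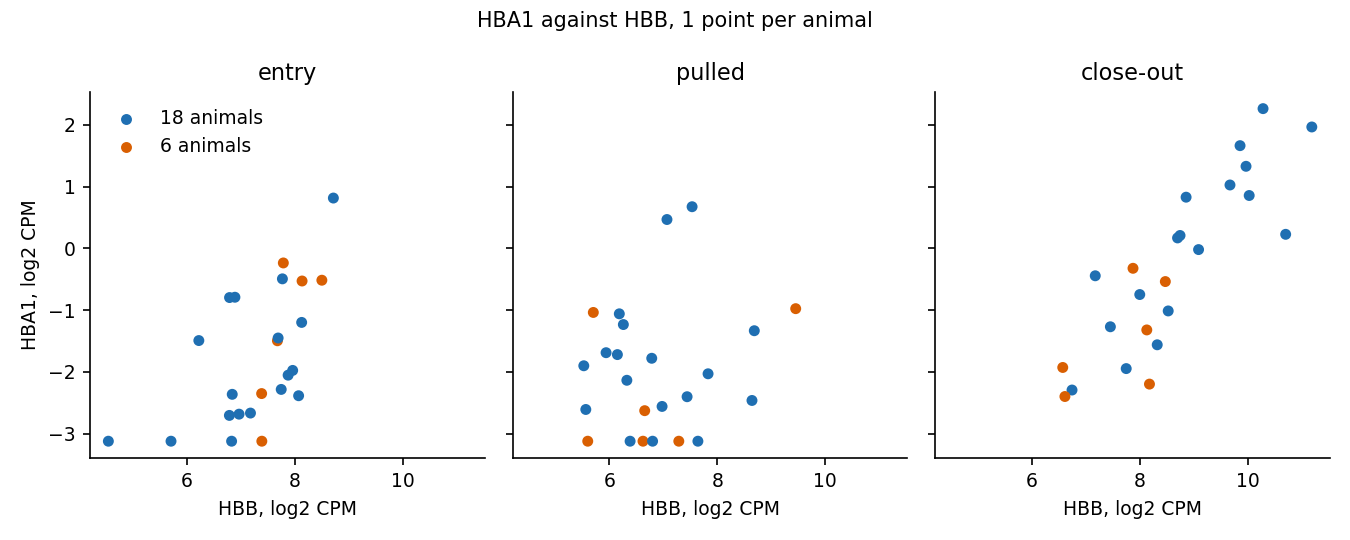
HBA1 against HBB, both in TMM-scaled log2 CPM, 1 point per animal and 1 panel per stage, coloured by the set of 18 or 6 animals. At close-out the points rise together (r = 0.86), and when pulled they do not (r = 0.16).

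The rise at close-out was seen in the 18 animals. In them HBB ran from 31.5 to 474 per M at entry (median 158), from 41.5 to 395 when pulled (median 101) and from 141 to 2531 at close-out (median 403). Close-out against pulled gave a log2 fold change of 2.11 (edgeR, adjusted p = 1.75e-05, SE 0.34), with 18 of 18 animals higher, beside 13.6% of genes called higher. Close-out against entry gave 1.87 (edgeR, adjusted p = 4.37e-05, SE 0.34), with 15 of 18 higher, beside 30.4% of genes called higher. Animals 9 and 12 belong to the 18. Without their pulled libraries these changes were 2.16 and 1.86, both past the threshold, and HBB was higher at close-out than when pulled in 16 of 16.

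In the 6 animals HBB ran from 113 to 330 per M at entry (median 171), from 43.5 to 684 when pulled (median 103) and from 104 to 359 at close-out (median 277). Their means at entry, 193 ± 82.5 (SD, n = 6), and those of the 18 animals, 190 ± 107 (SD, n = 18), were close on the scale of library totals. On the TMM scale of the fits, entry stood at 7.81 ± 0.44 in the 6 and 7.15 ± 0.99 in the 18 (SD of log2 CPM). Close-out against pulled gave 0.61 (edgeR, adjusted p = 0.586, SE 0.51), higher in 4 of 6, where 1.15% of genes were called higher. Close-out against entry gave -0.29 (edgeR, adjusted p = 0.650, SE 0.48), where 20.5% of genes were called higher. The direction in the 6 turned with the scale: HBB was higher at close-out than at entry in 3 of 6 by TMM and in 4 of 6 by library totals, where the median ratio was 1.13.

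The difference between the sets was tested in 1 model with a term for it. The entry libraries of these sets stood apart in an earlier look at these data, so the division is no independent evidence. For close-out against entry, the change of HBB in the 6 animals was lower by -2.13 on the log2 scale than in the 18 (edgeR, adjusted p = 0.00418, SE 0.65). In that test 64.6% of all genes passed, so the difference is no mark of HBB, and the TMM factors differed between the sets at entry. With library totals in place of TMM it was -1.497 (edgeR adjusted p = 0.0334). For close-out against pulled, it was -1.49 (edgeR, adjusted p = 1, unadjusted p = 0.0304, SE 0.67), where edgeR called 0 genes (0%), with 261 (2.06%) at an unadjusted p under 0.05, and limma-voom called 0, with 247. For pulled against entry it was -0.64 (edgeR, adjusted p = 0.402, SE 0.67), where 68.4% of genes passed. The part of the entry libraries, or of anything else the title numbers stand for, in these differences was not tested.

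HBA went from 18 counts summed over the 6 animals at entry to 1 when pulled and 20 at close-out. Per M counts, pulled was 0.0607 of entry (95% exact interval 0.00146 to 0.384) and 0.0503 of close-out (0.00121 to 0.314). In edgeR the change from entry to pulled was -3.61 in the 6 animals (SE 0.87, adjusted p = 0.00636), where 19.3% of genes were called lower. In the 18 animals HBA had 43, 31 and 210 counts at the 3 stages, and its log2 fold change from entry to pulled was 0.03 (edgeR, adjusted p = 0.973, SE 0.65), in a comparison where 70.7% of genes passed. The value in the 6 animals thus rests on 1 count.

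HBB was also set against measures of the library itself, in 12 relations. At close-out, HBB log2 CPM was lower in libraries with a higher TMM factor, with r = -0.53 and rho = -0.60 over 24 animals (permutation adjusted p = 0.0453 and 0.0268), and -0.42 without the 2 farthest. Within the sets it did not pass at close-out, with r = -0.52 in the 18 animals and -0.18 in the 6 (permutation, exact for the 6, adjusted p = 0.111 and 0.876). These 2 values were adjusted in another family of 12 relations, which also held those of HBB with HBA and HBA1. In the 18 animals at entry r was -0.72 (rho = -0.49, permutation adjusted p = 0.0112 and 0.155), and -0.57 without the 2 farthest. In the 6 at entry it had the opposite sign, with r = 0.83 and rho = 0.89 (exact permutation, p = 0.0444 and 0.0333, adjusted p = 0.178 and 0.155). A TMM factor divides the values of its own library, so the 2 measures share it. With HBB on library totals alone r was -0.40 at close-out, -0.66 in the 18 at entry and 0.91 in the 6 at entry. No relation of HBB with the library total or with the number of genes that had a count passed the adjustment. The part of library composition in the HBB levels was not tested.

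Among the genes that passed the filter, few were much like HBB. HBA and HBA1 failed that filter, so they were not among the genes compared here. Over the 72 libraries, the Pearson correlation of log2 CPM with HBB was above 0.6 for 3 of the 12654 other genes, above 0.7 for 2 and above 0.8 for 0, and the median gene stood at -0.02. The closest was ENSBTAG00000038757, with r = 0.76 over all libraries and 0.66 after the stage means were taken out. Its log2 CPM was 0.12 ± 1.32 at entry, -0.76 ± 1.15 when pulled and 1.34 ± 1.37 at close-out (SD, n = 24), with counts of 2 to 69, 1 to 32 and 4 to 417. Within stages its r with HBB was 0.66, 0.31 and 0.91. Next came ENSBTAG00000013178, with r = 0.70 and 0.58 within stages, and log2 CPM of 2.63 ± 1.12, 2.01 ± 1.41 and 3.82 ± 1.10 (SD, n = 24). Like HBB, both had their highest mean at close-out and their lowest when pulled. Both were picked for their correlation with HBB over all 72 libraries, stage differences included, so that shared order is partly built in. The libraries also share depth and scaling, so these values are a description.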

How the data were processed

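Whole-blood RNA of 24 cattle at 3 stages was analysed from the counts per Ensembl gene that the authors deposited, with no normalization. TopHat2, HTSeq and the build UMD3.1 were used, per the submitters' processing notes. The sources used here do not give versions, annotation release, strand setting or the treatment of reads with several matches. All columns matched a sample (0 without one). Groups and animals come from the labels, and the animal number pairs the libraries.

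Counts were analysed in R 4.3.3. The edgeR 4.0.16 filter by stage (minimum count 10, minimum total 15) kept 12655 genes, TMM scaled the libraries, and 1 quasi-likelihood model with animal as a block and stage as factor was fitted to 72 libraries. The Benjamini-Hochberg threshold was 0.05. HBA and HBA1 failed the filter, so they were kept beside the tested genes in a second fit (12657 genes), a change made after the data were seen. Each SE is the size of the log2 fold change over the square root of its F statistic. Log2 CPM used a prior count of 2. Correlations and ratios were computed in Python 3.11.15 with scipy 1.17.1, with permutation tests of 100000 resamples, exact with 6 animals, and Benjamini-Hochberg adjustment within each family. Intervals for counts and shares are exact at 95%.

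Alternatives were other scaling, filters and pseudocounts, limma 3.58.1, DESeq2 1.42.0, no animal block, sets of animals, and each animal left out. The scripts were tested on simulated data. The members, lists and tests were chosen with earlier results of these data known. The members are named by identifier. The 2 other genes named had the highest correlation with HBB over the 72 libraries among the genes that passed the filter. Marker lists by symbol were not used here, since 0 identifiers matched the RefSeq gene table of ARS-UCD2.0. No coordinates and no sequences are given, because that assembly is not the build of the counts. Separate animals are the replicates, with 1 library for each animal and stage.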

Additional observations from a re-analysis of the deposited data

Results flagged for a closer look

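In 4 results the change between stages was not alike in the 6 animals numbered above 98 in their sample titles and in the other 18, by a test of the difference itself in edgeR. For HBB, close-out against entry, the change in the 6 was -2.13 on the log2 scale relative to the 18 (edgeR, adjusted p = 0.00418, SE 0.65). For HBA1 in the same comparison it was -2.95 (edgeR, adjusted p = 0.00448, SE 0.91), and for HBA -2.53 (edgeR, adjusted p = 0.0176, SE 0.94). For HBA, pulled against entry, it was -3.68 (edgeR, adjusted p = 0.0177, SE 1.39), which rests on 1 HBA count in the 6 pulled libraries. In these tests 64.6% of all genes passed for close-out against entry and 68.4% for pulled against entry. For close-out against pulled, the comparison without entry, 0 of 12655 genes passed. The entry libraries of the 2 sets stood apart in an earlier look at these data. The division into 6 and 18 animals is therefore no independent evidence. Over the other settings tried, adjusted p ran from 0.00380 to 0.0334 for HBB, from 0.00429 to 0.0179 for HBA1 and from 0.0120 to 0.0629 for HBA at close-out, and from 0.0154 to 0.0369 for HBA when pulled.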

How the results depend on the processing

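The fits without the animal block moved the log2 fold changes of HBB to -0.25, 1.88 and 1.63 (pulled against entry, close-out against pulled, close-out against entry), and unlike the paired fits they ignore the animal, but no call of a haemoglobin gene changed. Leaving out each animal changed no such call either: HBB ran from -0.59 to -0.36, from 1.63 to 1.94 and from 1.18 to 1.46, while the genes called for close-out against entry ran from 2027 (without animal 20) to 4249 (without animal 2). Library totals in place of TMM moved the median of all genes to -0.19 for pulled against entry and 0.13 for close-out against pulled, and HBB to -0.59, 1.89 and 1.31. In the 18 animals HBA and HBA1 were at 0.026 and 0.051 for pulled against entry, with 8952 genes called there and 8178 for close-out against entry. When the doubted pulled libraries were also left out, a setting chosen after seeing the data, HBA1 was at 0.20, with 9173 and 8362 genes called. In the 6 animals HBA was -3.61 for pulled against entry. Close-out against pulled in the 6 gave 0.61 for HBB, 3.38 for HBA and 1.24 for HBA1, with 319 genes called, none of the 3 past the threshold. Close-out against entry in the 6 gave -0.29, -0.23 and -0.36, with 5029 genes called. With a pseudocount of 5, the alpha-to-HBB log2 ratio differed by 0.28, -0.38 and -0.10, and the HBA-to-HBA1 ratio for close-out against entry by -0.40 (permutation adjusted p = 0.0278). In the 18 animals the alpha-to-HBB ratio differed by 0.15 for pulled against entry. The HBA-to-HBA1 ratio for close-out against pulled was 0.014 when the doubted pulled libraries of animals 9 and 12 were left out, 0.61 in the 6 animals, and -0.31 to 0.054 over each animal left out. Repeat correlations that changed sign were those of HBB between entry and pulled (rho -0.0435, and r -0.179 without the 2 farthest animals) and between entry and close-out (-0.120 and -0.141), of HBA between pulled and close-out (-0.0981 in the 18 animals) and of HBA1 between entry and pulled (-0.267 without the 2 farthest). The difference between the sets for HBA was -0.015 in limma-voom for close-out against pulled, and -1.92 with library totals for close-out against entry (adjusted p = 0.0629). The cause of these shifts was not tested. Low counts limit the precision for the alpha-globin genes, and whether depth or the counting of reads that match both copies set those counts was not tested. The 1 library per animal and stage gives no measure of technical error.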
